A study of Mus musculus with 12 samples.

Results

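The genes described here encode the nuclear subunits of mitochondrial complexes I, III, IV and V, which carry out oxidative phosphorylation. They were taken as the table rows whose gene name begins with Nduf, Uqcr, Cox4 to Cox8 or Atp5 and whose mean over the 12 libraries was at least 5 RPM (reads scaled to a common library total). Of 26219 genes in the table, 86 matched the names and 82 reached the level. The 4 that did not were Cox4i2 (mean 0.092 RPM), Cox6a2 (0.496 RPM), Cox8b (listed at 0 in every library) and Ndufa4l2 (2.37 RPM). The lowest genes kept were Ndufaf3 at 10.9 RPM and Cox7a1 at 15.2 RPM, so none lay close to the limit. By known function 74 of the 82 are subunits: 36 of complex I, 8 of complex III, 15 of complex IV and 15 of complex V. The other 8 share only the name. Ndufaf1 to Ndufaf4 are assembly factors of complex I, Cox7a2l helps respiratory complexes to associate, Atp5sl (now Dmac2) helps to assemble complex I, Atp5s (now Dmac2l) is its relative, and Cox4nb (now Emc8) belongs to a membrane complex of the endoplasmic reticulum.

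Complex I takes electrons from NADH, complex III passes them to cytochrome c, and complex IV hands them to oxygen. The proton gradient that these enzymes build drives complex V, the ATP synthase. Several small subunits of complex IV exist as a general form and as a form used in muscle or testis, and germ cells switch some of these forms on as spermatogenesis proceeds.

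The samples are 6 mouse cell lines with 2 culture replicates each, which the labels call biological replicates. GSC_1 and GSC_2 are germline stem cells, that is, cultured spermatogonial stem cells, each from an independent testis at postnatal day 7. The other 4 lines, GSCLC_1 to GSCLC_4, consist of germline stem cell-like cells derived from testes reconstituted in culture. The testes behind GSCLC_1 and GSCLC_4 were held at 34°C for 3 weeks (condition 1 here), and those behind GSCLC_2 and GSCLC_3 at 37°C for 2 weeks followed by 1 week at 34°C (condition 2). Every line has a mixed C57BL/6 and 129/SvJcl background and carries the AcrAct_EGFP reporter, and each is a single line, so a trait of 1 line need not hold for its kind. Transcripts were read from their 3′ ends by SC3-seq. The spacing of low values implied 3031769 to 4644318 counted reads per library, and a floor of 3 reads corresponded to 0.646 to 0.99 RPM, for counting error only. All 8 germ cell markers reached 5 RPM, and they summed to 2963 to 3645 RPM per library. Markers of somatic testis cells summed to less than those of germ cells in every library, and their sums reached higher in GSC than in GSCLC libraries. The summed level of 5 Leydig cell markers was 11.7 to 109 RPM in GSC and 3.99 to 8.44 RPM in GSCLC libraries. That of 6 Sertoli cell markers was 32.9 to 141 and 21.6 to 50.9 RPM, and of 7 fibroblast markers 166 to 505 and 108 to 300 RPM. The 5 macrophage markers found summed to 11.6 to 30.1 and 4.01 to 10.2 RPM. Sertoli and fibroblast ranges overlapped. In GSC_1 and GSC_2, Sertoli markers were at 92.25 and 141 RPM in replicate 1 but at 35.1 and 32.9 RPM in replicate 2. Leydig markers were at 75.6 and 109 RPM in replicate 1 and at 12.1 and 11.7 RPM in replicate 2. Fibroblast markers were at 283 and 166 RPM in the replicates of GSC_1 and at 505 and 504 RPM in those of GSC_2. The Sertoli marker Amh and the Leydig marker Cyp17a1 were at 0 in every library. The other 5 Sertoli and 4 Leydig cell markers each reached 5 RPM in at least 1 library. In bulk RNA, fewer cells that express a gene and less RNA of it per cell cannot be told apart.

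The promoters of 4 genes that the results below turn on are shown here, from RefSeq on GRCm38.p6, each from 250 bases before to 50 bases after the transcription start and on the gene's own strand. Cox8a and Atp5h are the genes that differed between GSC and GSCLC lines. Cox7b and Cox7b2 are the general and the testis form of the same complex IV subunit. Capitals mark the letters GCGCANGCG, the core of the motif of NRF1, and CCGGAAG, that of GABPA, on either strand; both factors are known regulators of respiratory genes. The windows lie at chr19:7217567-7217866 (minus strand), chr11:115419870-115420169 (minus strand), chrX:106015450-106015749 (plus strand) and chr5:71548156-71548455 (minus strand), in the order printed.
Cox8a: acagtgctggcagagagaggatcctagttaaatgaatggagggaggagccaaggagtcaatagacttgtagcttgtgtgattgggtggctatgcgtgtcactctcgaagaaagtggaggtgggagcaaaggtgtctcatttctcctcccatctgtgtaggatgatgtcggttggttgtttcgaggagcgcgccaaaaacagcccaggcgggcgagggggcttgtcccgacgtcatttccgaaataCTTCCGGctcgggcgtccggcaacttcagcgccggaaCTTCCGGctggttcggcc
Atp5h: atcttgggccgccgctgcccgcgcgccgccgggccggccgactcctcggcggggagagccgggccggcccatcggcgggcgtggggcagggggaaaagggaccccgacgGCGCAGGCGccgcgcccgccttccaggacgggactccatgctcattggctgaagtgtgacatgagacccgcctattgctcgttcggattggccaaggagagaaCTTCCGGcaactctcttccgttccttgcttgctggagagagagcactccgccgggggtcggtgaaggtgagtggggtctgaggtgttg
Cox7b: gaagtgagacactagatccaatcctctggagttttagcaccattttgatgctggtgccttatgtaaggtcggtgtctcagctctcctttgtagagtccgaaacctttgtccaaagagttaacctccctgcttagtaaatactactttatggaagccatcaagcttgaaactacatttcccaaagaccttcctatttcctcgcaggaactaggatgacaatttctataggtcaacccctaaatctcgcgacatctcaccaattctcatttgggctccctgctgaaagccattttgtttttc
Cox7b2: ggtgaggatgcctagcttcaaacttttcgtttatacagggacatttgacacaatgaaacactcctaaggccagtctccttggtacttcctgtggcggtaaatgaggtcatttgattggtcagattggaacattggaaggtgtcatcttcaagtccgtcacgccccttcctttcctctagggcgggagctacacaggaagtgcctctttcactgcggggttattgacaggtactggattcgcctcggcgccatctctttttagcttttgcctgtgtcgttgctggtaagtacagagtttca

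Cox8a held the GABPA letters at 2 places, the first beginning 5 bases before the start, and Atp5h held the GABPA letters beginning 38 bases before the start and the NRF1 letters beginning 141 bases before it. Neither Cox7b nor Cox7b2 held either motif. Promoter windows were at hand for 70 of the 82 genes. The NRF1 letters were in 18 of these 70 (25.7%), against 15.4% of the 9176 windows of genes tested and 6.47% of all 27025 windows. The GABPA letters were in 14 of 70 (20.0%), against 19.7% of the windows of genes tested and 9.12% of all. AAGATGG, the core of the YY1 motif, also a factor tied to respiratory genes, was in 11 of 70 (15.7%), against 7.65% and 6.47%. At least 1 of the 3 motifs was in 37 of 70 (52.9%), against 36.9% of the windows of genes tested and 19.7% of all. By complex, at least 1 was in 18 of 32 windows of complex I, 3 of 5 of complex III, 4 of 12 of complex IV and 9 of 14 of complex V. It was in 0 of the 3 windows of complex IV tissue forms. These are matches of letters and say nothing of binding.

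Respiratory subunit transcripts were abundant in all 6 lines. The 82 genes together took 2.16% to 2.73% of all RPM in a library. Reads came from transcript ends, so RPM has no length term, and levels of different genes are set side by side on this scale only. Complex V and complex IV subunits stood highest, with a median gene level of 516.9 and 437.8 RPM, against 220.8 RPM for complex III and 166.7 RPM for complex I. The most abundant were Atp5b, the catalytic beta subunit of ATP synthase, at a mean of 1342 RPM over the libraries, Cox6a1, a small subunit of complex IV, at 1270 RPM, and Atp5g1, a c ring gene of ATP synthase, at 1107 RPM. Ndufa7 (741 RPM) led complex I and Uqcrh (372 RPM) complex III. The lowest subunits were Ndufa12 (18.1 RPM) in complex I, Uqcr10 (118 RPM) in complex III, Cox7a1 (15.2 RPM) in complex IV and Atp5d (29.5 RPM) in complex V. Transcripts of subunits of the same complex thus spanned a wide range of RPM.

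**Figure D1:**
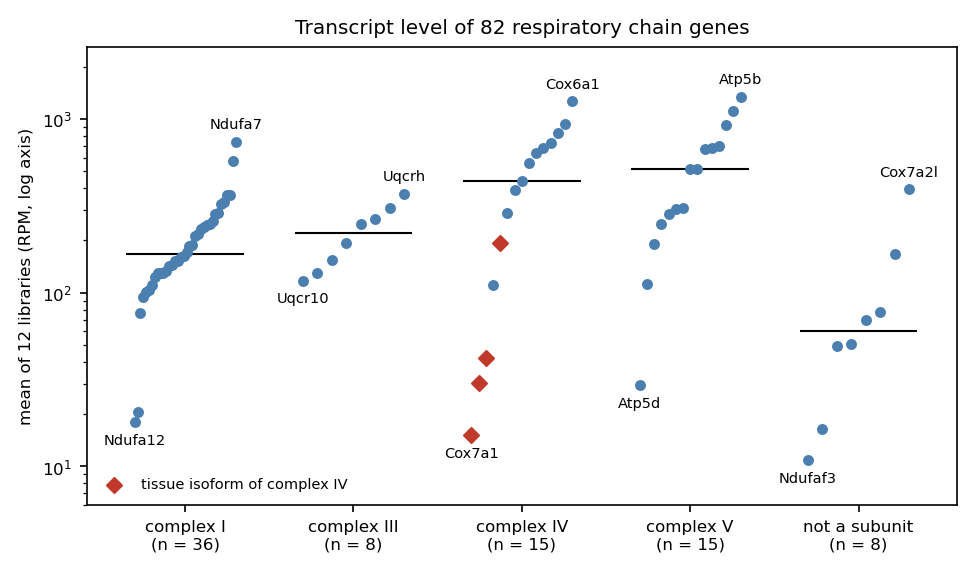
Mean RPM over the 12 libraries (log axis) of each of the 82 genes, sorted within its complex; bars mark the median of the complex and red diamonds the 4 tissue isoforms of complex IV. Complexes IV and V have the higher medians (437.8 and 516.9 RPM), and Cox7b2 is the isoform that stands highest, at 194 RPM.

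Tissue forms of complex IV were present at unequal levels. Cox7b2, the testis form of subunit 7b, averaged 204 ± 5.16 RPM over the GSC lines (SD over line means, n = 2) and 189 ± 28.3 RPM over the GSCLC lines (n = 4), and made up 43.5% ± 0.992 and 39.3% ± 4.19 of the Cox7b pair. The lowest share was that of GSCLC_3, at 35.2% and 31.3% in its 2 libraries, where the general form Cox7b was high. Cox7a1, the form of heart and skeletal muscle, made up 8.41% to 17.3% of the pair with Cox7a2 by line, highest in GSCLC_2 and GSCLC_4. In GSCLC_4 Cox7a1 itself was at 13.9 RPM, below its mean of 15.2 RPM, and Cox7a2 was at its lowest, 71.3 RPM. Cox6b2, the testis form of subunit 6b, made up 2.44% to 4.70% of the pair with Cox6b1, highest in GSCLC_4, where Cox6b1 was at its lowest (671 RPM). Cox8c, another testis form, made up 3.26% to 7.47% of the pair with Cox8a. The Cox8c share was higher in each GSCLC line (6.18% to 7.47%) than in either GSC line (3.26% and 4.50%), but Cox8c itself did not pass the test between kinds (log2 0.27 ± 0.19, limma adjusted p = 0.522), and Cox8a was lower in GSCLC lines. Of the muscle and lung forms, Cox8b was listed at 0, Cox4i2 was at most 0.326 RPM, and Cox6a2 was at 1.53 to 1.97 RPM in 3 GSC libraries and at most 0.501 RPM in the others. Ndufa4l2, a relative of Ndufa4 that replaces it under low oxygen, ranged from 4.09 to 6.40 RPM over the 4 GSC libraries and from 0 to 2.31 RPM over the 8 GSCLC libraries. These ranges did not overlap, but the gene lies outside the level rule and 3 GSCLC lines held a library under the floor.

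**Figure D2:**
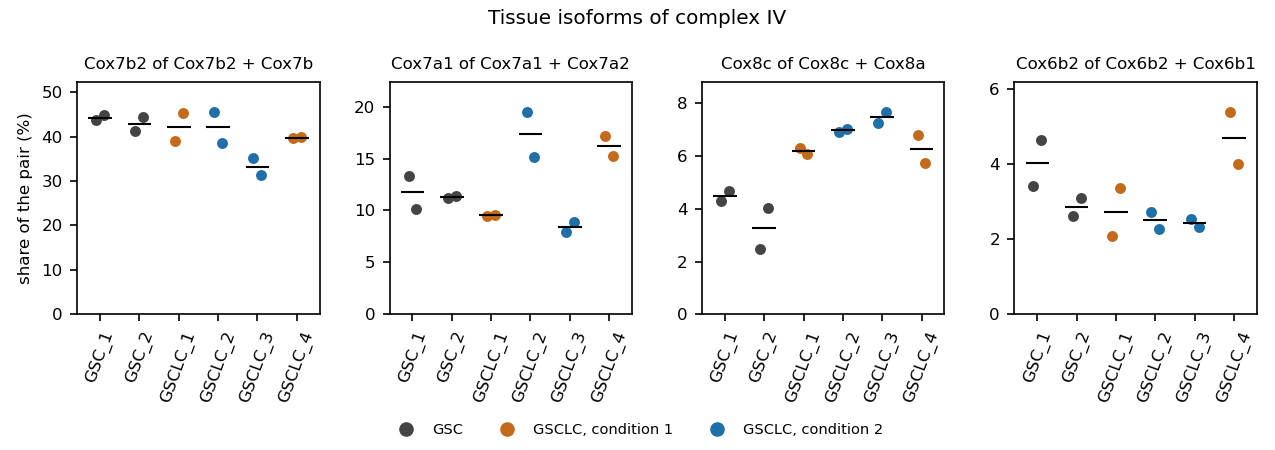
Share of each tissue isoform in the summed RPM of the isoform and its general form (percent), in single libraries (points) and as line means (bars). Cox7b2 makes up 33.2% to 44.2% of its pair by line and Cox6b2 at most 4.70%.

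GSCLC lines were compared with GSC lines to ask how close cells from reconstituted testes came to stem cells from postnatal testis. Few genes were called, among respiratory genes as among all genes tested. Relative to GSC lines, 0 of the 82 genes rose and 2 fell in GSCLC lines, namely Cox8a and Atp5h (limma on line means, 4 lines against 2, Benjamini-Hochberg adjusted over 11788 genes). Of all genes tested, 1.21% were called higher and 1.81% lower. The median difference of the 82 genes was -0.01 on the log2(RPM + 1) scale, against -0.01 for all genes tested, and 40 of 82 were above 0. Line means of the 2 kinds did not overlap for 11 genes on the higher side and 10 on the lower side, where the share over all genes was 13.8% and 14.9%.

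Cox8a encodes a small membrane subunit of complex IV (gene 12868, chr19:7215158-7217616). It was at 868 and 939 RPM in the libraries of GSC_1 and 944 and 987 RPM in those of GSC_2. In the 8 GSCLC libraries it ranged from 569 through a median of 625 to 695 RPM. Every GSC library was above every GSCLC library. Line means averaged 934 ± 43.8 RPM (SD, n = 2) and 618 ± 37.2 RPM (n = 4), a log2 difference of -0.60 ± 0.11 (SE, limma adjusted p = 0.0129).

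Atp5h encodes subunit d of the peripheral stalk, which holds the head of ATP synthase still while its rotor turns (gene 71679, chr11:115415691-115419919). It was at 362 and 440 RPM in GSC_1, 345 and 393 RPM in GSC_2, and 243 to 295 RPM in the 8 GSCLC libraries with a median of 275 RPM. Again no GSC library overlapped a GSCLC library. The line means of 385 ± 22.8 and 272 ± 19.4 RPM differed by -0.50 ± 0.11 on the log2 scale (limma adjusted p = 0.0413). Its last 200 bases share 140 aligned bases with a processed pseudogene, Gm10250, at 97.9% identity, so reads could be split between them. Sums of somatic cell markers also reached higher in GSC libraries. Those of Sertoli and Leydig cells were uneven between replicates as given above, while that of fibroblasts was 505 and 504 RPM in GSC_2. The part of somatic cells in these differences was not tested.

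Both calls depended on the lines kept and on the settings. With no filter on low values the adjusted p was 0.053 for Cox8a and 0.0857 for Atp5h, and with no variance trend it was 0.0867 and 0.145, so neither passed in either setting. Without GSC_1 the adjusted p of Cox8a was 0.129 and that of Atp5h 0.35, and without GSC_2 they were 0.236 and 0.272, so neither passed. Atp5h also lost its call without GSCLC_1 or GSCLC_2 (0.0678 and 0.0684), and without any of 6 single libraries: replicate 2 of GSC_1, GSC_2 or GSCLC_4, replicate 1 of GSCLC_2, and either replicate of GSCLC_3 (0.0516 to 0.0832). Replicate 1 of each line taken alone gave 0 calls, with an adjusted p of 0.0586 for Cox8a and 0.28 for Atp5h.

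In complex IV 4 of 15 genes were above 0 and the median difference was -0.12. The summed RPM of complex IV was 7764 ± 92.5 in GSC lines (SD, n = 2) and 6824 ± 601 in GSCLC lines (n = 4). Beside Cox8a, no member of complex IV passed the test. Cox5b, which encodes a subunit that faces the matrix, was at 585 and 718 RPM in GSC_1, 686 and 683 RPM in GSC_2 and 405 to 594 RPM in GSCLC libraries, with a log2 difference of -0.42 ± 0.12 and limma adjusted p = 0.0845. Its ranges overlapped by a single GSC library. Cox6a1 differed by -0.31 ± 0.13 (adjusted p = 0.255).

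Complex V had 7 of 15 genes above 0, with a median of -0.04, and the group means of its summed RPM were 7683 ± 139 and 8061 ± 580. Within it the c ring, the rotor part that protons turn, summed to 1693 ± 125 RPM over GSC lines and 2120 ± 338 RPM over GSCLC lines. Its genes Atp5g1, Atp5g2 and Atp5g3 encode 1 and the same mature protein. Atp5g1 was at 822 and 1147 RPM in GSC_1, 901 and 723 RPM in GSC_2, and 867 to 1462 RPM in GSCLC libraries with a median of 1249 RPM. These ranges overlapped, and the log2 difference of 0.43 ± 0.16 did not pass (limma adjusted p = 0.202). Without GSCLC_4 it was 0.56 and past the threshold.

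In complex I 22 of 36 genes were above 0, with a median of 0.07, and none passed. The closest by unadjusted p were Ndufc2, a membrane arm subunit, and Ndufs1, a core subunit that carries iron-sulfur clusters. Ndufc2 was at 246 ± 26.9 against 304 ± 31.7 RPM (log2 0.30 ± 0.13, limma adjusted p = 0.256). Ndufs1 was at 132 ± 12.9 against 163 ± 17.5 RPM (0.31 ± 0.13, limma adjusted p = 0.27). The accessory subunit Ndufa6, a low gene at 25.1 ± 1.52 against 18.4 ± 3.71 RPM, had the largest difference of the complex (-0.44 ± 0.21, adjusted p = 0.329). In complex III, 3 of 8 genes were above 0, and Uqcrh, the hinge subunit that binds cytochrome c1, differed most (409 to 440 RPM against 242 to 468 RPM in single libraries, -0.29 ± 0.14, adjusted p = 0.305). Among the genes that are not subunits, the assembly factor Ndufaf4 ranged from 48.7 to 61.6 RPM over GSC libraries and from 69.3 to 92.4 RPM over GSCLC libraries. Those ranges did not overlap, but the log2 difference of 0.44 ± 0.14 did not pass (adjusted p = 0.132). Ndufaf3 differed by 0.45 ± 0.37 (adjusted p = 0.578).

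**Figure D3:**
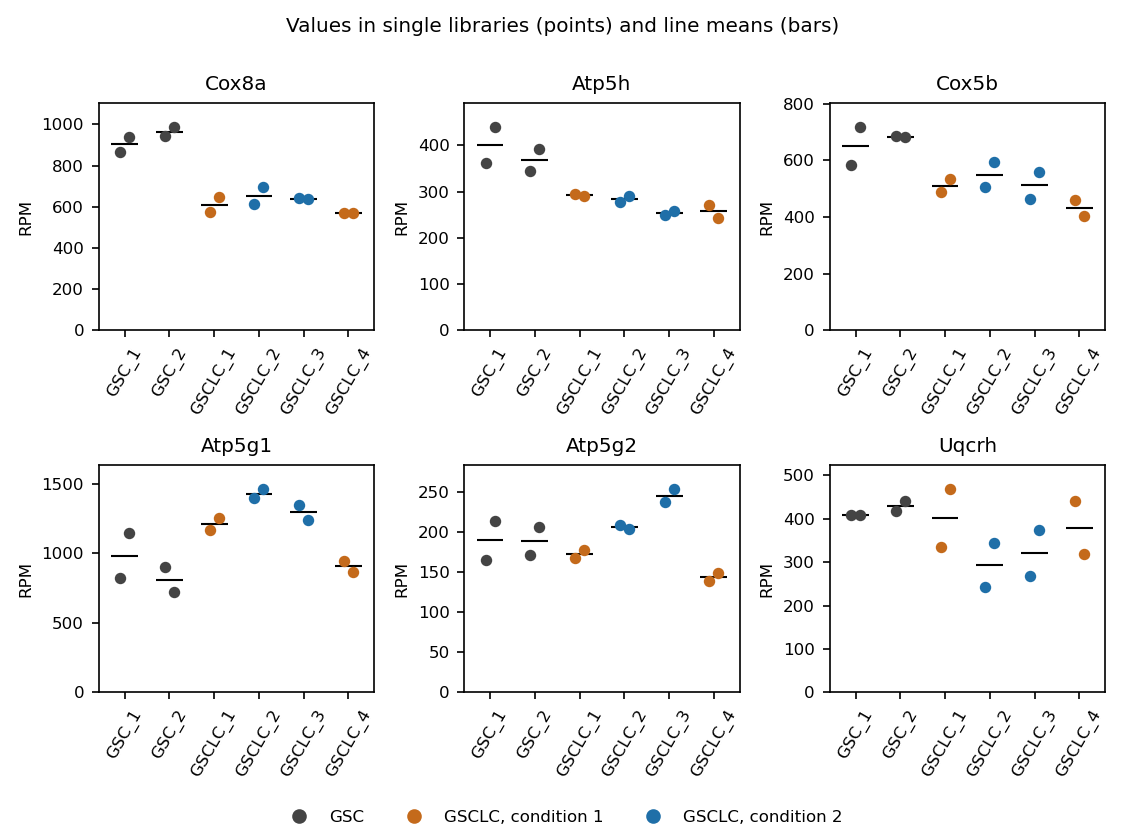
RPM of 6 genes in single libraries (points, colour by culture group) with line means (bars), axes from 0. Cox8a and Atp5h show no overlap of GSC and GSCLC libraries, while Atp5g1 in GSCLC_4 (867 and 949 RPM) falls within the GSC range.

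Other lists of energy metabolism genes were compared between kinds of line in the same way. Of all genes tested, 1.21% were higher and 1.81% lower in GSCLC lines. Among carriers of ADP, ATP and phosphate, 1 of 8 tested genes was higher and 0 lower: Slc25a4, an ADP/ATP exchanger, went from 158 ± 4.82 to 292 ± 71.8 RPM (log2 0.85 ± 0.19, limma adjusted p = 0.0394). Among glycolysis genes 1 of 20 was lower, the aldolase gene Aldoc, from 83.3 ± 15.3 to 45.4 ± 3.55 RPM (-0.87 ± 0.16, adjusted p = 0.016). Of 75 tested genes of mitochondrial ribosomal proteins 2 were higher and 0 lower, with a median of 0.07. No gene was called in complex II and the mobile carriers (10 tested, median 0.17) or in assembly factors with other names (27, median 0.02). The first of these lists also held Cyc1, a complex III subunit that the name rule leaves out. The second also held Usmg5 of ATP synthase and Atpif1, its inhibitor. Nor was any gene called in expression of mitochondrial DNA (15, 0.15), in nuclear regulators of respiratory genes (12, -0.05) or in the tricarboxylic acid cycle (18, 0.01). In the list of complex II and mobile carriers Cyct, testis cytochrome c, had 124 ± 1.84 against 171 ± 9.88 RPM and a limma adjusted p of 0.0639. For all genes tested the median was -0.01.

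The conditions differ in the temperature at which the reconstituted testes were kept, and the lines from each were compared next. Of the 82 genes 0 were called between condition 2 and condition 1, and of all genes tested 0% were (limma, 2 lines against 2, smallest adjusted p over all genes 0.933). The count stayed at 0 in all 29 alternative settings. At an unadjusted p under 0.05, 8 of the 82 genes were higher and 1 lower in condition 2, while over all genes 153 were higher and 399 lower. The median difference of the 82 genes was 0.10, with 58 of 82 above 0, against -0.07 for all genes tested. Line means of the conditions did not overlap for 21 genes that were higher and 6 that were lower in condition 2, where the share over all genes was 9.28% and 21.6%.

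The median difference between conditions varied with the lines and libraries used. The median of 0.10 became 0.02 without GSCLC_4, 0.04 without GSCLC_2, 0.12 without GSCLC_3 and 0.20 without GSCLC_1. It was 0.02 in replicate 1 and 0.17 in replicate 2 of the lines taken alone. Cytosolic ribosomal protein genes had a like median, 0.14, with 72 of 83 above 0. Complex IV had 13 of 15 genes above 0 (median 0.21), complex I 28 of 36 (0.10), complex V 11 of 15 (0.10) and complex III 3 of 8 (-0.01).

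Values for the genes with the smallest p or largest difference in each complex show how the lines lay. Atp5g2, a c ring gene, was at 168 and 178 RPM in GSCLC_1, 139 and 148 RPM in GSCLC_4, 209 and 205 RPM in GSCLC_2 and 237 and 254 RPM in GSCLC_3. No library of condition 1 overlapped one of condition 2, and GSC libraries (165 to 214 RPM) spanned both. The log2 difference was 0.51 ± 0.15 (limma unadjusted p = 0.0064, adjusted p = 0.933), and its last 200 bases are also part of an annotated transcript of Gm10175. Ndufab1, the acyl carrier protein of complex I, was at 86.4 to 146 RPM in condition 1 and 121 to 182 RPM in condition 2, ranges that overlapped (0.48 ± 0.18). Ndufb7, a subunit of the membrane arm, was at 82.2 to 93.8 RPM against 97.8 to 174 RPM (0.53 ± 0.20). Cox7b was at 219 to 295 against 250 to 459 RPM (0.45 ± 0.19) and Cox4i1, the general form of subunit 4 of complex IV, at 647 to 766 against 750 to 1151 RPM (0.37 ± 0.15). In complex III, Uqcrh was the 1 gene on the lower side at an unadjusted p under 0.05, at 319 to 468 RPM in condition 1 and 242 to 375 RPM in condition 2 (-0.35 ± 0.12), and Uqcrc1, a core subunit, had the largest difference (0.37 ± 0.19). Among genes that are not subunits, Ndufaf3 (0.79 ± 0.38) and Cox4nb (0.49 ± 0.20) differed most. Each of these had an adjusted p of 0.933.

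**Figure D4:**
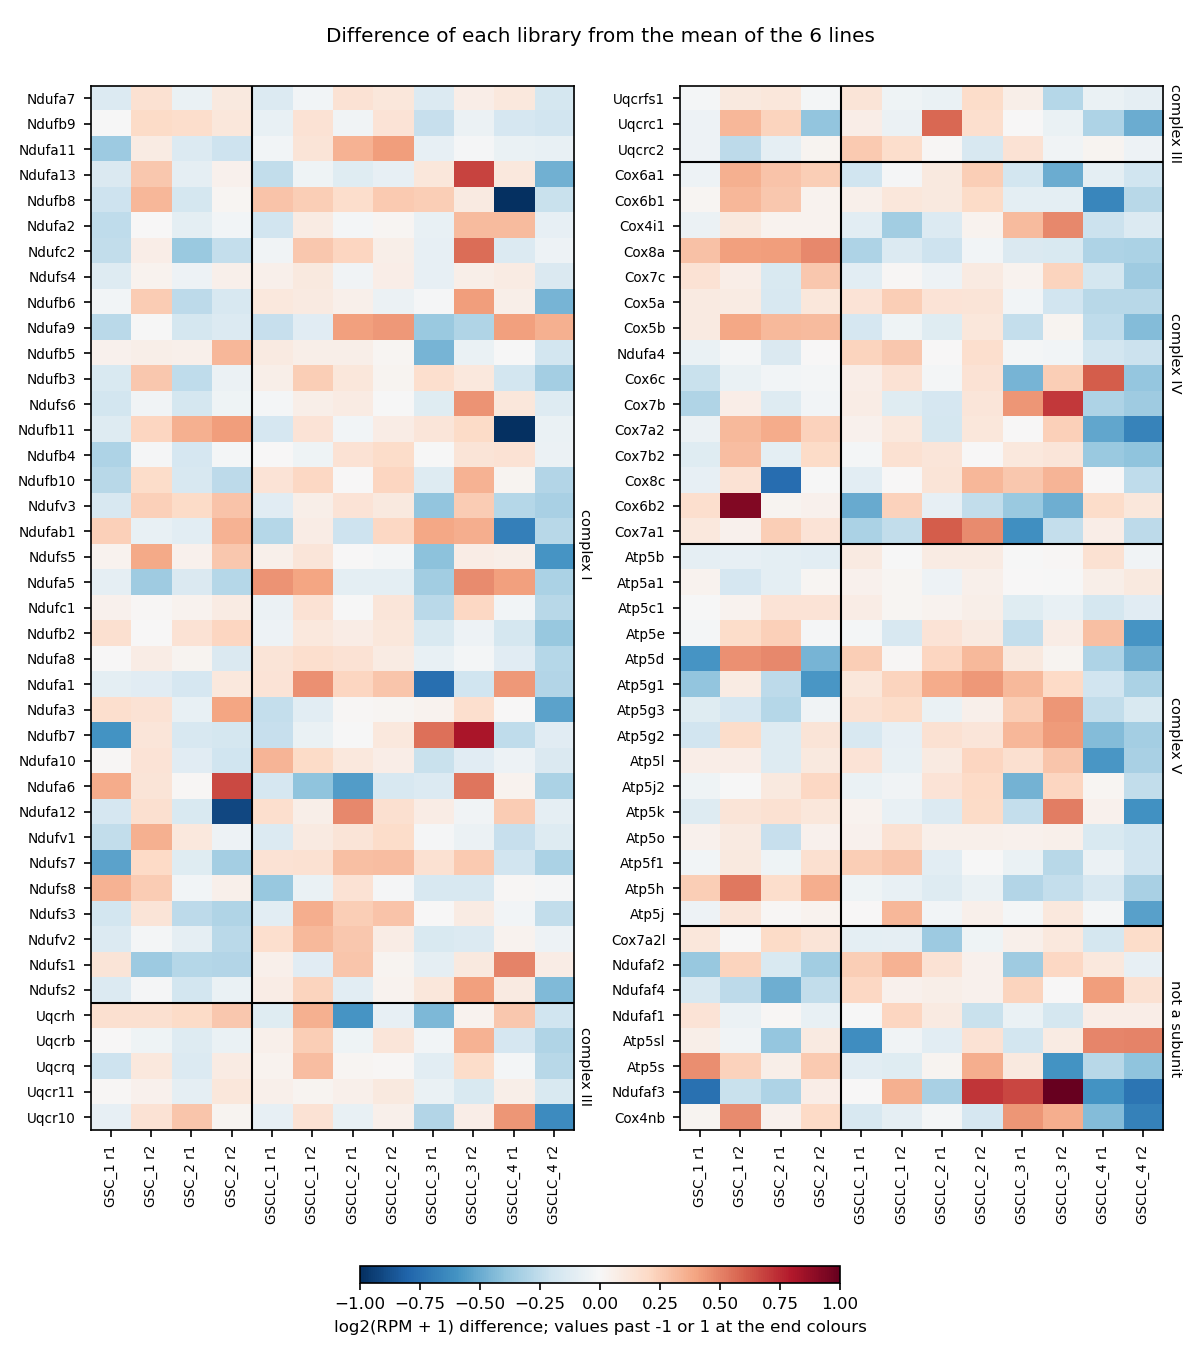
Difference of each library from the mean of the 6 lines on the log2(RPM + 1) scale, 1 row per gene, ordered by complex, with a vertical line between GSC and GSCLC libraries. The blue column of GSCLC_4 replicate 2 (median of the 82 genes -0.26) and the blue row of Cox8a in GSCLC libraries stand out. The median of GSCLC_4 replicate 1 was -0.04, within the range of the other lines' libraries (-0.09 to 0.10).

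Each line was then set against the others. An F test over the 6 lines called 19 of the 82 genes (23.2%), against 20% of all genes tested (limma on single libraries). The test rests on the spread between 2 culture replicates, so it speaks for these lines and not for their kind. The calls were 7 of 15 in complex IV, 5 of 15 in complex V, 5 of 36 in complex I, 0 of 8 in complex III and 2 of 8 among genes that are not subunits. The median SD of a gene was 0.17 within a line and 0.18 between line means on the log2 scale, against 0.24 and 0.25 over all genes tested. These were not matched for level: the 82 genes had a median of 214 RPM, while genes tested needed only 5 RPM in 2 libraries. In complex IV the called genes were Cox4i1, Cox5b, Cox6a1, Cox6b1, Cox7a2, Cox7b and Cox8a, and in complex V Atp5g1, Atp5g2, Atp5g3, Atp5h and Atp5l. The count and the share of all genes both depended on the setting: 3 of the 82 genes (3.66%) against 11.3% of all genes with no variance trend, 5 (6.10%) against 5.89% with no filter on low values, and 11 (13.4%) against 17.3% without GSCLC_3 replicate 2.

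GSCLC_4 had the most genes at low levels. Against the mean of the other 5 lines, 14 of the 82 genes were lower and 2 higher in GSCLC_4, while 3.16% of all genes were lower and 6.13% higher. The median difference of the 82 genes was -0.18, with 17 of 82 above 0, against 0.09 for all genes. It was -0.32 in complex IV, -0.24 in complex V, -0.16 in complex I and -0.10 in complex III. The summed RPM of complex IV was 6125 and 5800 in the 2 libraries of GSCLC_4 and 6766 to 8255 in the other 10.

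Ndufb8, Cox7a2, Ndufb11 and Cox6b1 were among the subunit genes that fell in GSCLC_4. Ndufb8, a membrane arm subunit of complex I, was at 153 and 269 RPM in GSCLC_4 and 272 to 396 RPM elsewhere (log2 -0.76 ± 0.16, limma adjusted p = 0.00528). Cox7a2, a complex IV subunit, was at 74.9 and 67.6 RPM in GSCLC_4 and 95.3 to 140 RPM elsewhere (-0.71 ± 0.13, adjusted p = 0.00262). Ndufb11, of the same arm as Ndufb8, was at 81.7 and 172 RPM against 159 to 240 RPM (-0.71 ± 0.18, adjusted p = 0.0158), so its replicate 2 lay within the range of the others. Cox6b1, which links the monomers of the complex IV dimer, was at 584 and 758 RPM against 858 to 1157 RPM (-0.56 ± 0.11, adjusted p = 0.00407).

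The other complex IV genes called lower in GSCLC_4 than the mean of the other lines were Cox5a (-0.33), Cox5b (-0.41), Cox7b (-0.40) and Cox8a (-0.37). The testis form Cox7b2 was also called (-0.46 ± 0.12, 149 and 145 RPM against 176 to 238 RPM elsewhere). Cox8a, at 572 and 569 RPM in GSCLC_4, lay next to the lowest other library (572 RPM), with GSC libraries at 868 to 987 RPM. Cox7b, at 226 and 219 RPM, lay next to the lowest other library (228 RPM), with GSCLC_3 at 381 and 459 RPM. In complex V Atp5l, subunit g, fell by 0.54 ± 0.10 on the log2 scale (341 and 408 RPM against 467 to 621 RPM) and Atp5g2 by 0.47 ± 0.12. Ndufab1 (-0.57), the complex III core gene Uqcrc1 (-0.48) and Cox4nb (-0.67) complete the 14. None of the 5 genes of the head and central stalk of ATP synthase was called in GSCLC_4: their median was -0.17, with Atp5b at 0.07 and Atp5a1 at 0.09, and Atp5c1 at -0.18, Atp5e at -0.17 and Atp5d at -0.48. Promoter windows of 13 of the 14 were at hand, and 6 of the 13 held at least 1 of the 3 motifs.

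The size of this difference varied between the 2 cultures of GSCLC_4. The median deviation of the 82 genes from the mean of the lines was -0.04 in replicate 1 and -0.26 in replicate 2. In libraries of the other lines it ran from -0.09 to 0.10, so only replicate 2 of GSCLC_4 lay outside their range. By complex, the 2 libraries of GSCLC_4 had medians of 0.01 and -0.21 in complex I. In complex IV they had -0.21 and -0.28, against -0.11 to 0.15 in the other lines' libraries. Without replicate 1 of GSCLC_4, 4 of the 82 genes (4.88%) were called lower against 0.653% of all genes, and the median of the 82 was -0.28. Without its replicate 2, 7 (8.54%) were, against 3.46% of all genes, and the median was -0.07. With no filter on low values the count was 6 (7.32%, all genes 0.763%) and with no variance trend 3 (3.66%, all genes 1.39%). Genes of cytosolic ribosomal proteins were also low in GSCLC_4, with 18 of 83 lower, 0 higher and a median of -0.19. Those of mitochondrial ribosomal proteins were not, with 0 of 75 lower, 5 higher and a median of 0.02, nor were those of the tricarboxylic acid cycle (0 of 18 in either direction, median 0.05). Among carriers of ADP, ATP and phosphate, 2 of 8 were lower and 0 higher, with a median of -0.13. Complex II and the mobile carriers had 0 of 10 in either direction and a median of 0.11.

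In GSCLC_3, 7 genes were higher and 3 lower than in the other 5 lines, against 3.01% and 6.23% of all genes, and the median of the 82 genes was 0.00 (all genes -0.09). Cox7b was at 381 and 459 RPM in GSCLC_3 and 219 to 306 RPM elsewhere (log2 0.69 ± 0.12, limma adjusted p = 0.00113). Ndufb7 was at 144 and 174 RPM against 64.5 to 107 RPM (0.82 ± 0.15, adjusted p = 0.00159), and the low gene Ndufaf3 at 16.4 and 22.9 RPM against 5.54 to 17.0 RPM (1.07 ± 0.28, adjusted p = 0.0224). Cox4i1 (0.48), Cox4nb (0.48), Atp5g2 (0.46) and Atp5g3 (0.41) were the other genes that rose. Ndufa1 (-0.57 ± 0.17), Cox6a1 (-0.40 ± 0.11) and Ndufa9 (-0.40 ± 0.10) fell. Without replicate 2 of GSCLC_3, 0 of the 82 genes were called higher, against 1.2% of all genes, and without its replicate 1 6 (7.32%) were, against 1.08%.

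Position on the chromosome went with some of these values. In GSCLC_3 the 627 other tested genes of chromosome 8 had a median of 0.40 above the other lines, and 3 of the 4 respiratory genes of chromosome 8, Ndufb7, Cox4i1 and Cox4nb, were among the 7 that were higher; the remaining gene, Ndufa13, was 0.47 above without passing. Ndufa9, an accessory subunit of complex I, lies on chromosome 6 beyond 80 Mb (chr6:126821863-126849144). There the 314 other tested genes had a median of 0.40 in GSCLC_2, 0.48 in GSCLC_4 and -0.31 in GSCLC_3, and Ndufa9 differed by 0.51 ± 0.10, 0.45 ± 0.10 and -0.40 ± 0.10 in these lines. It was at 304 and 309 RPM in GSCLC_2 and 303 and 292 RPM in GSCLC_4, and at 176 to 227 RPM in the other 8 libraries. The 3 respiratory genes of chromosome 6 before 80 Mb, Ndufa5, Ndufb2 and Ndufa4, had no call in these lines. The part of the chromosome in the values of single genes was not tested.

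The remaining lines had few calls. In GSCLC_2, 3 genes were higher and 0 lower (all genes 1.6% and 1.7%): Ndufa9, Ndufa11, an accessory subunit of complex I at 463 and 487 RPM against 282 to 397 RPM elsewhere (0.46 ± 0.11, limma adjusted p = 0.0229), and Atp5g1 at 1400 and 1462 RPM against 723 to 1350 RPM (0.48 ± 0.12, adjusted p = 0.0214). In GSCLC_1, 0 genes were called in either direction, where 0.178% of all genes were higher and 0.17% lower. In GSC_1, 2 genes were higher and 0 lower (all genes 2.19% and 2.4%), namely Cox8a (0.42 ± 0.09) and Atp5h (0.47 ± 0.11). In GSC_2, 2 were higher, Cox8a (0.54 ± 0.09) and Cox5b (0.38 ± 0.11), and 1 lower, Atp5g1 (-0.51 ± 0.12), against 3.91% and 3.07% of all genes. Each of these comparisons shares libraries with the others, since every line is also among the 5 that another is set against.

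**Figure D5:**
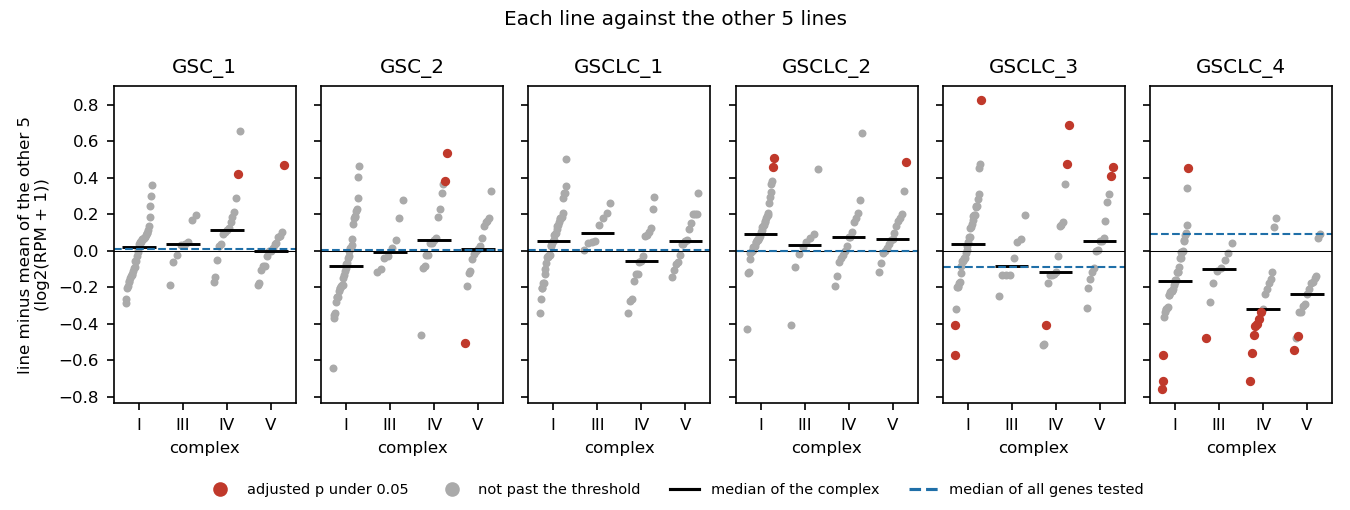
Difference of each line from the mean of the other 5 lines (log2(RPM + 1)) for the 74 subunit genes by complex; red points have an adjusted p under 0.05, black bars are medians of a complex and the dashed line is the median of all genes tested. In GSCLC_4 the median of each complex lies below 0 (complex IV at -0.32) while that of all genes lies at 0.09.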

How the data were processed

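Per the labels' protocols, 12 SC3-seq libraries were made from 1 ng of total RNA each. The authors deposited 1 table of RPM for 26219 genes. cutadapt 1.3, TopHat 1.4.1 and Cufflinks 2.2.0 and build mm10 are named in the submitters' processing notes; the sources used here do not say whether counting used the strand. Between 99.8% and 99.9% of low values were whole multiples (within 0.1) of 1 step per library, which gives the implied depth, but not for every gene, so count tests were not run.

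Tests covered the 11788 genes that reached 5 RPM in 2 or more libraries, as log2(RPM + 1), a scale that understates changes of low genes; all 82 members passed. limma 3.58.1 (R 4.3.3, mean-variance trend) compared line means between kinds and conditions in fits over all 6 lines, and single libraries between lines. P-values are two-sided, Benjamini-Hochberg adjusted over all genes, with 0.05 as the threshold. The tests were tried on simulated data for recovery of planted changes larger than those reported here. That trial does not show how smaller changes are recovered or how often false calls arise. Independence of lines was not tested. The last 200 bases of each member's transcript (GENCODE vM21) were aligned to all transcripts with blastn 2.17.0 (at least 95% identity over 100 bases), which matched 14 of 82 members to another gene: Atp5g1, Atp5g2, Atp5h, Atp5k, Atp5l, Atp5o, Cox5a, Cox6a1, Cox7c, Ndufb6, Ndufb11, Ndufc1, Ndufs3 and Uqcrc2. Values of these are uncertain to that extent. The genes named are those called, those with the smallest p or largest difference per complex and comparison, the highest and lowest per complex, and the paralogues. The members, lists and rules were chosen with earlier results of these data known.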

Additional observations from a re-analysis of the deposited data

Results flagged for a closer look

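Among the 4 GSCLC lines, 29 single genes or complex sums were examined for a line far from the other 3, and chance gives such a line in about 1 of 20 groups. GSCLC_4 stood apart in Cox7b2, the testis form of complex IV subunit 7b, with a line mean of 147.1 RPM. GSCLC_4 also stood apart in the summed RPM of complex V, at 7197, where the other GSCLC lines lay between 8266 and 8434.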

How the results depend on the processing

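Of 1216 alternative values of single genes, 18 fell below the threshold and 1 passed it. The sign changed in 35, over 11 differences that had not passed, and no called difference changed sign. Between kinds these log2 differences were -0.010 with quantile normalisation and -0.126 with replicate 2 only for Atp5g2, and 0.069 with replicate 1 only for Cox7b2. Between conditions they were 0.064 with median-ratio scaling for Cox7a2l, -0.022 with quantile normalisation and -0.016 with replicate 2 only for Cox6a1, and -0.026 with replicate 1 only for Ndufa4. When single libraries or lines were left out, the differences between kinds ran from -0.123 to 0.133 for Atp5g2, -0.178 to 0.031 for Cox4i1, -0.027 to 0.275 for Cox7b and -0.215 to 0.009 for Cox7b2. Those between conditions ran from -0.004 to 0.361 for Atp5g3, -0.210 to 0.300 for Cox6a1, -0.060 to 0.489 for Cox6b1, -0.236 to 0.728 for Cox7a1, -0.031 to 0.637 for Cox7a2, -0.157 to 0.127 for Cox7a2l and -0.211 to 0.229 for Ndufa4. The 2 genes called between GSCLC and GSC lines became 0 with no filter on low values, 0 with no variance trend and 0 with replicate 1 only, and 0 to 3 when a library or line was left out; the lone line of a kind was then assumed to vary like the others. The F test called 19 genes, but 5 with no filter, 3 with no variance trend (a lower share than that of all genes) and 11 to 20 without single libraries. The 14 lower genes of GSCLC_4 became 6, 3 and 4 to 18 in the same settings, and 21 with median-ratio scaling, and the 7 higher genes of GSCLC_3 became 4, 3 and 0 to 9; these settings for single lines were added after seeing the data. The median difference between kinds ran from -0.05 to 0.05, so its sign is not settled. Deviations of same-numbered libraries correlated above 0.1 in 2 of 15 pairs of lines (range -0.12 to 0.11), so little pairing by replicate number was seen. A shift of the respiratory genes as a set with replicate number was not tested. The median deviation of these genes was higher in replicate 2 in every line but GSCLC_4. Medians in replicates 1 and 2 were -0.05 and 0.10 in GSC_1, -0.09 and 0.04 in GSC_2, and 0.01 and 0.08 in GSCLC_1. They were 0.04 and 0.09 in GSCLC_2, -0.07 and 0.08 in GSCLC_3, and -0.04 and -0.26 in GSCLC_4. With single libraries, a line effect and a replicate block, 3 genes were called between kinds, 0 between conditions, 20 by F test, 14 lower in GSCLC_4 and 9 higher in GSCLC_3, and the medians between kinds and conditions stayed at -0.01 and 0.10. Depth limits genes near the floor, such as Ndufa4l2. The causes were not tested.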
